A study of Mus musculus with 6 samples.

Results

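The 40 genes described here belong to the responses that cells mount when amino acids run short or when unfolded proteins collect in the endoplasmic reticulum (ER). They were taken by symbol from a list of genes named for the ATF4 and unfolded protein responses. All 40 were measured, among 19938 genes with a probe set of their own. By role, 12 are amino acid genes described as ATF4 targets, 10 are regulators of the ATF4 arm and other targets, 3 are sensors of unfolded protein and 15 are ER chaperone, folding and quality control genes. RNA came from mouse embryonic stem cells of a line in which both Dicer alleles are floxed (Dicer Fx/Fx). Dicer is the ribonuclease that makes mature microRNAs. Group 1 was 3 arrays of untreated cells, "without deletion" in the labels, with no collection day given. Group 2 was 3 arrays of cells of the same genotype given tamoxifen for 3 days and collected 2 days later, on day 5, when Dicer had been deleted. The labels do not say what drives the tamoxifen-inducible recombinase or whether the line is 1 clone. Nor do they say that each replicate was a culture of its own, so the p-values speak of the scatter among these arrays alone, and that scatter may be technical. Wild-type E14 cells given tamoxifen are named in the protocol and were not analysed here, so tamoxifen and Dicer loss cannot be told apart.

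ATF4 is a transcription factor whose protein is made when a kinase of the translation factor eIF2 senses missing amino acids, unfolded ER protein, haem shortage or double-stranded RNA. It switches on genes that make and import amino acids, and, if stress lasts, regulators tied to cell death. The unfolded protein response has further arms: ATF6, which is cut and moves to the nucleus, and IRE1 (Ern1), which splices the Xbp1 transcript; these arms raise the chaperones that fold secreted and membrane proteins. Embryonic stem cells divide fast and draw heavily on amino acid supply.

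All values are log2 signals from RMA, a method that puts the arrays on 1 distribution, so a shift shared by most transcripts would not show. Array medians ran from 7.19 to 7.26, and arrays correlated across genes at 0.996 to 0.998 within a group and 0.993 to 0.996 between groups. Dicer1 was at 11.36 to 11.48 in the untreated arrays and at 9.48 to 9.69 after tamoxifen. Embryonic stem cell markers (10 of 11 measured) had a mean log2 signal of 12.46 to 12.55 in untreated arrays. In tamoxifen arrays it was 12.36 to 12.42. By limma, 0 of the 10 were called at an adjusted p under 0.05. At an unadjusted p under 0.05, 0 were up and 4 down, where 11.5% and 13.1% of all genes were. With a block for the replicate number, as used below, 0 were called higher and 3 lower (Utf1, Tdgf1 and Fgf4). Of all genes, 7.87% and 9.54% were. The value was below 0 in 7 of the 10 and above 0 in 3 (Nanog 0.07, Sox2 0.06 and Esrrb 0.05). The small downward step of the marker mean had the same direction as most genes below, and its part in their values was not tested. The mean for feeder fibroblast markers (9 of 10 measured) was 6.59 to 6.73 in untreated and 6.68 to 6.76 in tamoxifen arrays. Primitive or visceral endoderm markers (10 measured) averaged 7.07, 6.72 and 6.77 in untreated replicates 1, 2 and 3. In the tamoxifen arrays of those numbers they averaged 6.97, 6.88 and 6.82. Untreated replicate 1 was the highest untreated array here and for the feeder markers (6.73, against 6.68 and 6.59). It was the lowest untreated array for the stem cell markers (12.46, against 12.55 and 12.48) and for most ATF4-side genes below. A link was not tested. RMA gives no detection call, so none of these markers can be called absent.

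Of the 40 genes, Dnajb9 rose and Kdelr3, Nupr1 and Ddit3 fell at a limma adjusted p under 0.05, and 36 were not called. That is 1 gene higher, where 3.79% of all genes tested were called higher, and 3 lower, where 3.99% of all genes were called lower; 10% of these genes were called against 7.78% of all genes, a share near the background. In RNA of a whole culture, fewer cells of a kind and less RNA per cell cannot be told apart. In 31 of the 40 the value was below 0, a larger share than the 9331 of all 19938 genes. The median difference between tamoxifen and untreated was -0.13 on the log2 scale. It was 0.01 for all genes tested, and -0.03 for those left without the dimmest 40%. The arrays numbered 1, 2 and 3 pair across the groups in their deviations from the group means. Within these pairs the median over the 40 genes was 0.00, -0.18 and -0.20. All 3 pairs were higher in 4 of the 40 and lower in 14, where 25.7% and 26% of all genes were. With a block for the replicate number, 1 was called higher and 8 lower, where 7.87% and 9.54% of all genes were. The 4 calls are sensitive to single arrays: when the arrays were left out singly, Ddit3 passed in 2 of 6 fits and Kdelr3, Nupr1 and Dnajb9 in 1 each. With all 35556 probe sets fitted together, 0 of the 40 were called by limma, while 11 passed an unadjusted p under 0.05 in the fit to genes (24.5% of all genes did).

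**Figure D1:**
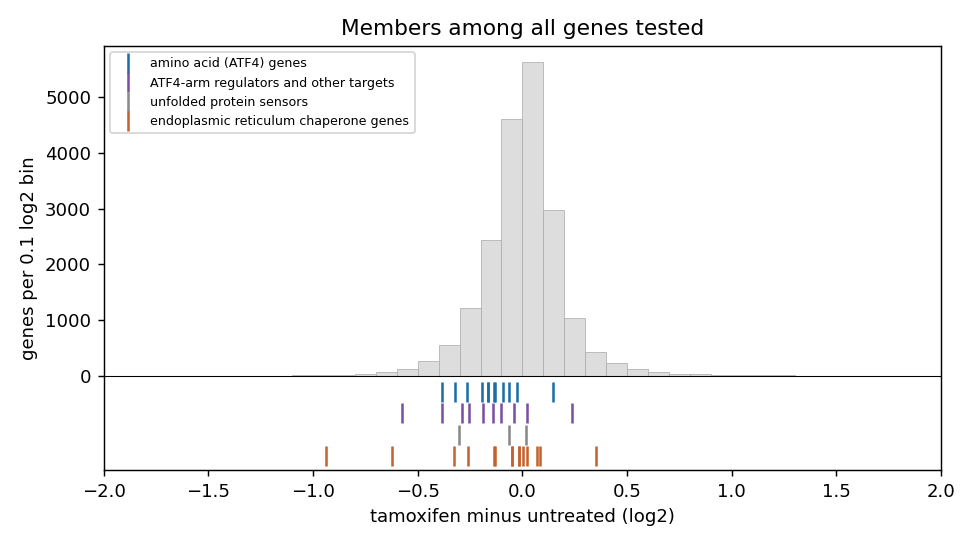
The histogram shows the log2 difference between tamoxifen and untreated arrays (horizontal axis) for all genes tested, with genes per bin of 0.1 on the vertical axis; ticks under it mark the 40 genes by role. Kdelr3 at -0.94 and Dnajb9 at 0.35 are the ends of the range, and the amino acid genes lie between -0.38 and 0.15.

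The promoters of many of these genes carry short DNA elements through which each arm acts, elements that were first described in genes such as these. Of the 40, 35 had a promoter window in the RefSeq table (GRCm38.p6, 250 bases before to 50 bases after the transcription start), and both strands were searched. The ER stress element, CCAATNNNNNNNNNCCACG, binds ATF6 with the CCAAT-box factor NF-Y. It was found in 7 of 14 chaperone genes with a window (Calr, Canx, Creld2, Dnajc3, Hsp90b1, Hspa5 and Pdia6) and in 0 of the other 21 members, beside 0.137% of all 27025 genes of any kind with a window. Its second form, ATTGGNCCACG, was found in Herpud1 and Dnajb11, beside 0.0444% of all genes. The core of the C/EBP-ATF response element, TGATGNAA, which ATF4 binds with a C/EBP partner, was found in 8 members (Asns, Chac1, Slc7a11, Atf3, Nupr1, Trib3, Vldlr and Herpud1), beside 4.51% of all genes. The elements share no bases at these sites in Herpud1, the only member with 2 kinds of match.

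The stretches below show the element that each arm reads, with the match in capitals and 12 bases on each side, read 5′ to 3′ on the gene's strand. TTGCATCA is the C/EBP-ATF core on the opposite strand. The ATF4-side genes are shown first, since their values are described first:
Chac1 (chr2:119351037-119351068, + strand): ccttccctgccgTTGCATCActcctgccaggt
Slc7a11 (chr3:50443641-50443691, - strand): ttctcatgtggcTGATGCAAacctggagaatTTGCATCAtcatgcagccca
Nupr1 (chr7:126625561-126625592, - strand): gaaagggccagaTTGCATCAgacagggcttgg
Atf3 (chr1:191183424-191183455, - strand): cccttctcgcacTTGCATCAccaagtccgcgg
Asns (chr6:7693213-7693244, - strand): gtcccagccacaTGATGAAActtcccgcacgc
Of the chaperone genes shown, Hspa5, Calr and Pdia6 hold the 19-base ER stress element. Herpud1 holds its second form, ATTGGNCCACG, and the C/EBP-ATF core:
Hspa5 (chr2:34772013-34772055, + strand): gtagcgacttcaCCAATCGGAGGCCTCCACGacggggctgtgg
Calr (chr8:84847063-84847105, - strand): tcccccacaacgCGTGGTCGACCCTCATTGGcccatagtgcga
Pdia6 (chr12:17266479-17266521, + strand): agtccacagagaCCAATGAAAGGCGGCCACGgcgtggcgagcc
Herpud1 (chr8:94386305-94386399, + strand): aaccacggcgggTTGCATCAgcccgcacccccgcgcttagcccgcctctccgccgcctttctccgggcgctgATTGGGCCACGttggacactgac
A match in these letters is a description of the sequence, and no binding was measured.

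The regulators of the ATF4 arm came to 0 called higher and 2 lower of 10 genes, beside 3.79% and 3.99% of all genes. Their median difference was -0.16. Ddit3 encodes CHOP, the factor linked to death under lasting stress. Its signal was 8.71, 8.63 and 8.70 in untreated replicates 1, 2 and 3 and 8.33, 8.12 and 8.43 in the tamoxifen arrays of those numbers. The highest tamoxifen array was lower than the lowest untreated one, as for 14.8% of all genes, with a gap of 0.19. Ddit3 fell 1.31-fold, from 8.68 ± 0.05 to 8.29 ± 0.16 (SD, n = 3), a log2 change of -0.39 ± 0.08 (SE) with a limma adjusted p of 0.0304. Leaving out untreated replicate 1, 2 or 3 or tamoxifen replicate 2 gave adjusted p-values of 0.0648, 0.0779, 0.0772 and 0.0929.

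Nupr1, a small chromatin-bound stress protein, was at 10.47, 10.69 and 11.01 in the untreated arrays and 10.26, 9.92 and 10.26 after tamoxifen. The groups did not overlap, and the lowest untreated array was replicate 1. Nupr1 fell 1.49-fold (log2 -0.58 ± 0.14 SE, limma adjusted p = 0.0438). The difference was -0.21, -0.77 and -0.75 in pairs 1, 2 and 3. Nupr1 kept its call without untreated replicate 1 (adjusted p = 0.0261) and not in the other 5 fits without 1 array (0.0503 to 0.15), nor after cyclic loess normalisation (0.0512).

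Atf4 itself was at 10.36, 10.68 and 10.73 in untreated cells and 10.44, 10.49 and 10.52 after tamoxifen. The tamoxifen values all lay inside the untreated range (difference -0.10 ± 0.10 SE, limma adjusted p = 0.56). ATF4 is governed at translation, which arrays of RNA do not read. Atf3, a factor that ATF4 switches on, had 8.26, 9.07 and 9.01 in untreated and 8.33, 8.50 and 8.64 in tamoxifen arrays. Trib3, a pseudokinase that restrains ATF4 and AKT, had 9.06, 10.04 and 9.87 against 9.45, 9.33 and 9.43. For Atf3 and Trib3 as for Atf4, untreated replicate 1 lay below every tamoxifen array, while untreated replicates 2 and 3 lay above them all. The C/EBP partners Cebpb and Cebpg had differences of -0.14 ± 0.08 and -0.19 ± 0.09 (SE), negative in all 3 pairs. Atf5, a relative of ATF4, had the largest positive value of the arm, 0.24 ± 0.12 (SE, limma adjusted p = 0.244). The secreted hormone Stc2 and the lipoprotein receptor Vldlr had 0.02 ± 0.14 and -0.04 ± 0.15, each with a positive pair 1 and negative pairs 2 and 3.

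None of the 12 amino acid genes was called by limma. At an unadjusted p under 0.05, 0 were up and 3 down, where 11.5% and 13.1% of all genes were. In 11 of the 12 the value was below 0, a larger share than the 9331 of all 19938 genes. The median difference of the 12 was -0.15. Pair by pair that median was 0.04, -0.22 and -0.21. The serine pathway was represented by Phgdh, Psat1 and Psph, which act in that order. Psph, the phosphatase of the last step, was at 9.67, 10.16 and 10.10 in untreated and 9.70, 9.67 and 9.42 in tamoxifen arrays. The 3 tamoxifen arrays were below untreated replicates 2 and 3, and untreated replicate 1 lay among them. The difference was -0.38 ± 0.13 (SE, limma adjusted p = 0.115), and -0.54 with adjusted p = 0.0232 without untreated replicate 1. Psat1 had -0.17 ± 0.07 (SE, limma adjusted p = 0.188) with groups that did not overlap, and Phgdh had -0.13 ± 0.09. A further Phgdh probe set shared with another gene was not used.

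Mthfd2, the mitochondrial enzyme that carries one-carbon units from serine into formate, was at 11.70, 12.13 and 12.01 in untreated and 11.59, 11.71 and 11.75 in tamoxifen arrays. It was lower in all 3 pairs, at -0.11, -0.42 and -0.27, while the groups overlapped by 0.05. Its difference of -0.27 ± 0.11 (SE) had a limma adjusted p of 0.171, or 0.0359 with the replicate block. Shmt2, which feeds Mthfd2, had -0.03 ± 0.09. Asns, asparagine synthetase and the textbook amino acid response gene, was at 13.36, 13.51 and 13.54 in untreated and 13.41, 13.39 and 13.33 in tamoxifen arrays, a difference of -0.09 ± 0.07. Cth, which makes cysteine, had -0.06 ± 0.13.

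Chac1 degrades glutathione and is among the most inducible ATF4 targets; it is shown in full because of its spread, chosen after its values were seen. Its signal was 9.95, 11.35 and 10.94 in untreated and 10.45, 10.60 and 10.23 in tamoxifen arrays. The untreated arrays thus spanned 1.41 on the log2 scale and held all 3 tamoxifen arrays between them. The difference was 0.50 in pair 1, -0.76 in pair 2 and -0.71 in pair 3, with a mean of -0.32 ± 0.30 (SE, limma adjusted p = 0.553), and -0.72 with adjusted p = 0.029 without untreated replicate 1. Among the transporters, the cystine importer Slc7a11 had 0.45, -0.71 and -0.31 in the pairs, at a dim signal of 5.44 to 6.35. The leucine importer Slc7a5 and its partner chain Slc3a2 had -0.16 ± 0.10 and -0.13 ± 0.07 (SE), each with pair 1 at 0.01. The arginine and lysine importer Slc7a3 was the only amino acid gene with a positive value, 0.15 ± 0.14.

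**Figure D2:**
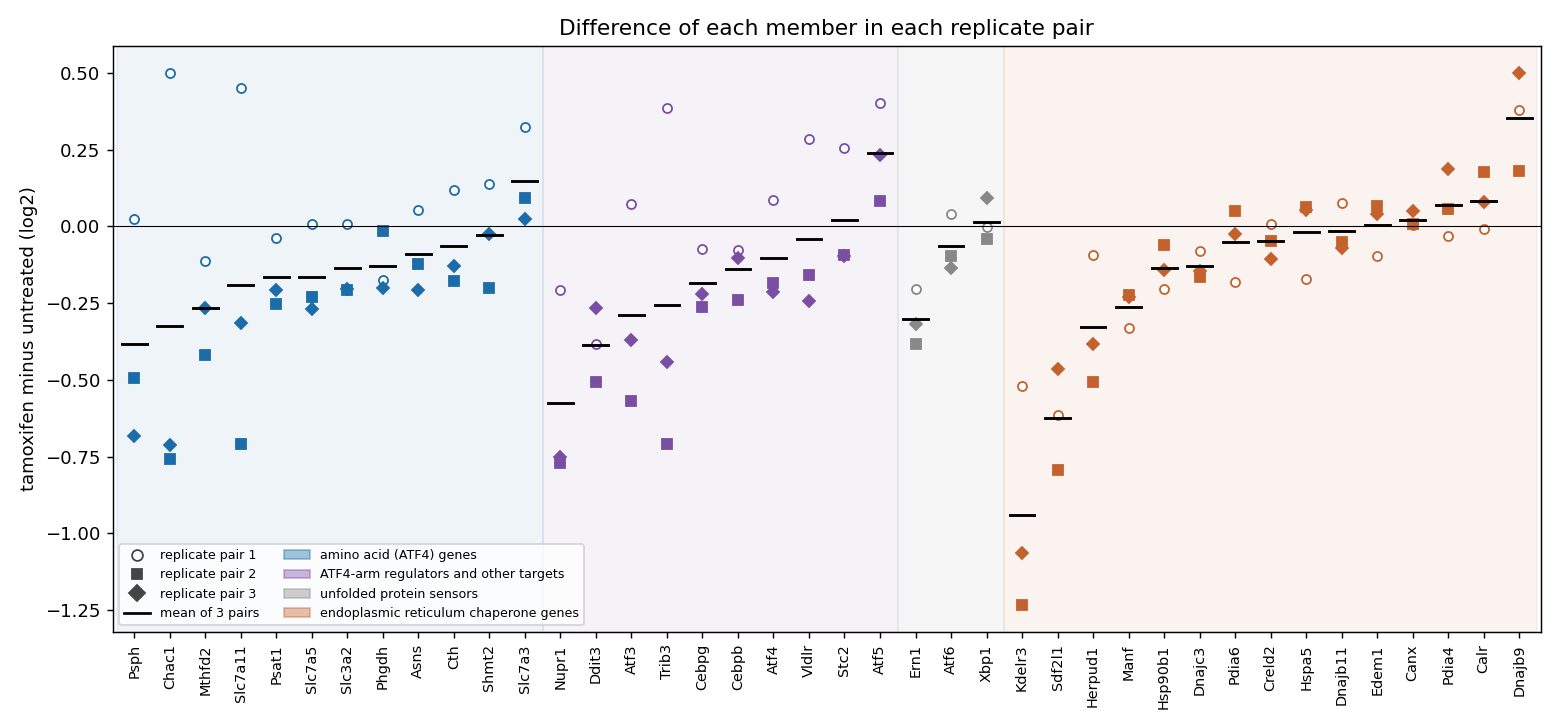
Each column is a gene, grouped by role and sorted by its mean; the vertical axis is tamoxifen minus untreated on the log2 scale, with a symbol for each replicate pair and a bar at the mean. The open circle of pair 1 stands highest in 11 of 12 amino acid and 9 of 10 ATF4-arm columns (Chac1 0.50 against -0.76 and -0.71), and in 5 of 15 chaperone columns.

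The amino acid genes and regulators spread more over the untreated than over the tamoxifen arrays, in 11 of 12 and 9 of 10 genes by SD, beside 55.1% of all genes. Untreated replicate 1 had the lowest of the 3 untreated values in 12 of 12 amino acid genes and in 9 of 10 ATF4-arm genes (the exception was Ddit3), beside 32.6% of all genes tested. All 3 tamoxifen arrays were below untreated replicates 2 and 3 in 10 of the 12 and 9 of the 10, beside 20.5% of all genes. The tamoxifen arrays lay wholly inside the untreated range in 5 of the 12 and 5 of the 10, beside 15.1% of all genes. The median SD over the untreated arrays was 0.21 and 0.26 in these groups and 0.10 in each over the tamoxifen arrays, where all genes had 0.09 and 0.08. Among the 15 chaperone genes, untreated replicate 1 was instead the highest untreated array in 11, beside 41% of all genes, and the lowest in 2. These counts were made after the values were seen. Genes of 1 pathway share their arrays and are not independent, so the counts describe these 6 arrays.

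Without untreated replicate 1, 8 of the 40 genes were called lower and 0 higher: Atf3, Chac1, Herpud1, Mthfd2, Nupr1, Psph, Slc7a11 and Trib3. In that fit 2.93% of all genes were called lower and 3.15% higher. Without untreated replicate 2, 0 members were called lower by limma, beside 1.01% of all genes. Without untreated replicate 3 only Sdf2l1 was, beside 2.23% of all genes. Without both arrays numbered 1 there were 8 lower, beside 4.71% of all genes. Without both numbered 2 or both numbered 3 there were 0, where all genes had 0.0301% and 0.201%, so these fits called few genes of any kind lower. The median over the amino acid genes was -0.23 without untreated replicate 1 and -0.08 without untreated replicate 2.

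**Figure D3:**
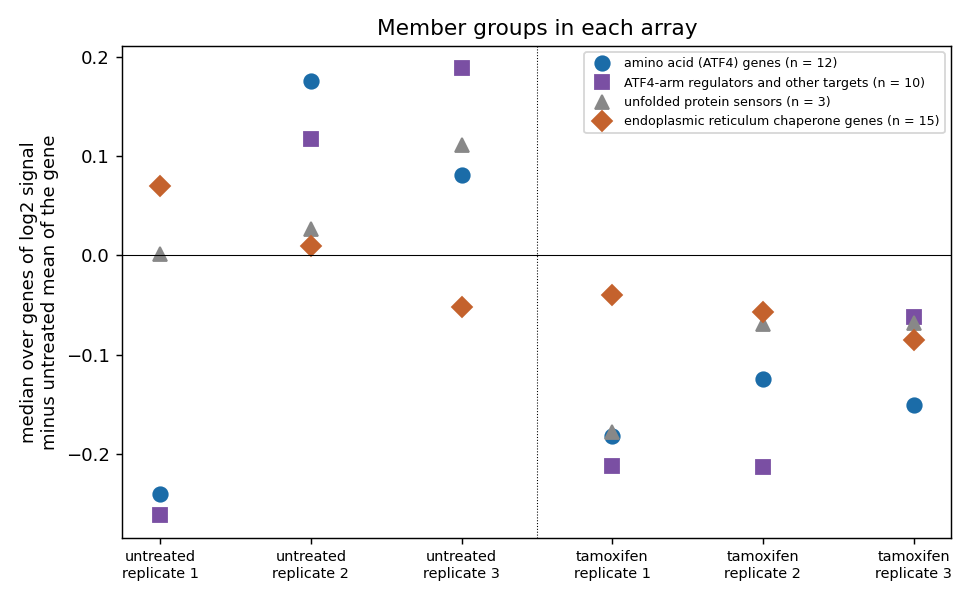
For each array (horizontal axis), the symbols give the median over the genes of a role of log2 signal minus that gene's untreated mean. The amino acid genes stand at -0.24 in untreated replicate 1, at 0.18 and 0.08 in untreated replicates 2 and 3, and between -0.18 and -0.12 in the tamoxifen arrays. The medians of the chaperone genes stay between -0.09 and 0.07 in all 6 arrays, with the highest in untreated replicate 1.

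Of the 3 sensors, 0 were called by limma. At an unadjusted p under 0.05, 0 were up and 1 down, where 11.5% and 13.1% of all genes were. Ern1, the kinase and ribonuclease IRE1, was at 8.89, 8.77 and 8.996 in untreated and 8.68, 8.39 and 8.68 in tamoxifen arrays. The groups did not overlap and all 3 pairs were lower, at -0.20, -0.38 and -0.32. Its difference of -0.30 ± 0.10 (SE) had a limma adjusted p of 0.0939, or 0.0136 with the replicate block. Atf6 was at 10.56, 10.81 and 10.97 in untreated and 10.60, 10.71 and 10.84 in tamoxifen arrays, inside the untreated range (-0.06 ± 0.11 SE). Xbp1, whose spliced transcript IRE1 makes, had 0.02 ± 0.08; the probe set was not tested for reading the spliced form apart from the unspliced.

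The ER chaperone group had 1 member called higher and 1 lower of 15, beside 3.79% and 3.99% of all genes. Its median of -0.05 held members on both sides. Kdelr3 is a receptor that returns escaped chaperones from the Golgi by their KDEL tail. It was at 12.05, 11.77 and 11.73 in untreated and 11.52, 10.53 and 10.67 in tamoxifen arrays. The groups did not overlap, and of the tamoxifen arrays replicate 1 stood nearest the untreated ones. Kdelr3 fell 1.92-fold, from 11.85 ± 0.17 to 10.91 ± 0.54 (SD, n = 3; log2 -0.94 ± 0.23 SE, limma adjusted p = 0.0411), which placed it at the 0.0552 percentile of all changes counted from the lowest. It was called in 1 of 6 fits without 1 array, that without tamoxifen replicate 1 (log2 -1.25, adjusted p = 0.00186); the other 5 gave 0.0783 to 0.138. Its relative Kdelr1 is among the other ER genes below, and Kdelr2 was not analysed here.

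Dnajb9, an HSP40 co-chaperone that holds IRE1 in check through HSPA5, moved the other way. It was at 10.34, 10.29 and 10.21 in untreated and 10.72, 10.47 and 10.71 in tamoxifen arrays. Every tamoxifen array was above every untreated array, as for 14.5% of all genes. Dnajb9 rose 1.28-fold (log2 0.35 ± 0.08 SE, limma adjusted p = 0.0367), with 0.38, 0.18 and 0.50 in the pairs, and was called in 1 of 6 fits without 1 array, that without tamoxifen replicate 2 (0.0379). The other 5 gave 0.0505 to 0.126.

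Beyond these calls, 3 chaperone-side genes were lower in every pair and passed with the replicate block alone. Sdf2l1, a partner of the DnaJ co-chaperones, was at 11.19, 11.04 and 10.34 in untreated and 10.58, 10.24 and 9.88 in tamoxifen arrays. In both groups replicate 1 was highest and replicate 3 lowest, so the groups overlapped although every pair was lower, at -0.61, -0.79 and -0.46. The difference of -0.62 ± 0.23 (SE), 1.54-fold, had a limma adjusted p of 0.136, or 0.00148 with the block, and 0.0397 without untreated replicate 3. Manf, a secreted factor that binds HSPA5, was at 9.82, 9.87 and 9.70 in untreated and 9.49, 9.65 and 9.47 in tamoxifen arrays, without overlap. Its difference was -0.26 ± 0.08 (SE, limma adjusted p = 0.0725, or 0.0192 with the block). Herpud1, a scaffold of ER-associated degradation, was at 10.09, 10.63 and 10.39 in untreated and 9.997, 10.12 and 10.01 in tamoxifen arrays. Untreated replicate 1 was the lowest of its untreated arrays, as in most ATF4-side genes, but 2 of its tamoxifen arrays lay lower still. Untreated replicate 1 was also lowest in Dnajb11, where no C/EBP-ATF core was found. A link between this pattern and the promoter elements was not tested. The Herpud1 difference was -0.33 ± 0.12 (SE, limma adjusted p = 0.139, or 0.0296 with the block).

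**Figure D4:**
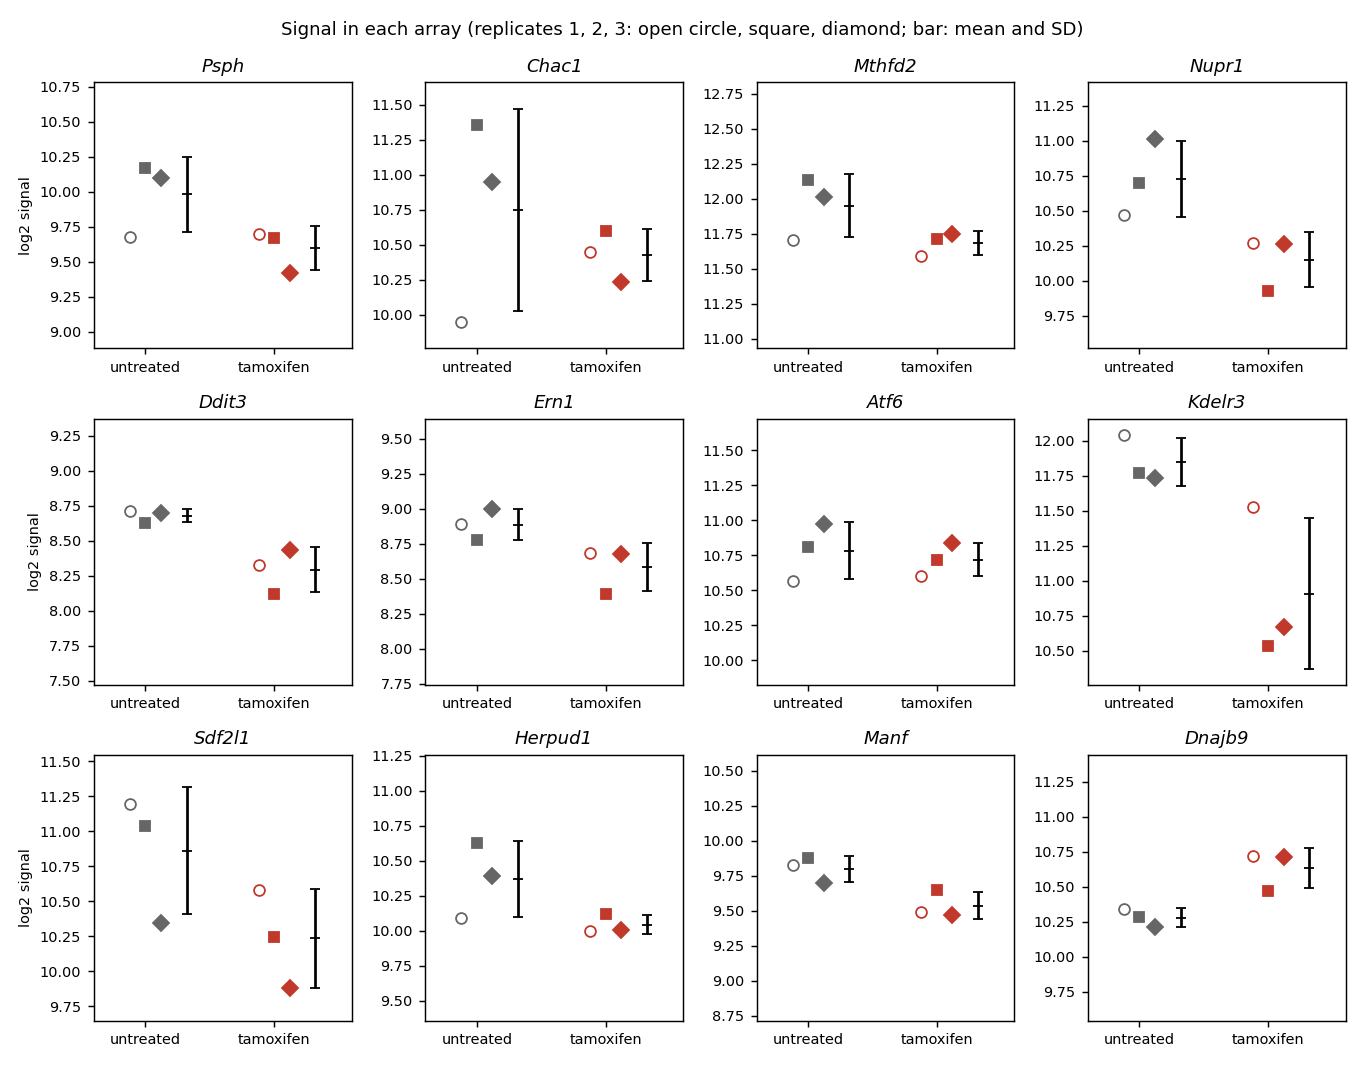
Each panel gives the log2 signal (vertical axis, the same span in every panel) of a gene in the 3 untreated and 3 tamoxifen arrays, with mean and SD beside them. Kdelr3 and Dnajb9 do not overlap between the groups, while the untreated Chac1 values span 1.41 around the tamoxifen values.

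Of the main chaperones, Hspa5, Calr and Canx were nearly level. Hspa5 (BiP), the master chaperone of the ER, was at 12.75, 12.60 and 12.57 in untreated and 12.58, 12.66 and 12.62 in tamoxifen arrays. Its difference was -0.02 ± 0.07 (SE), a limma adjusted p of 0.905. The lectin chaperones Calr and Canx had 0.08 ± 0.06 and 0.02 ± 0.06. Hsp90b1 (GRP94) had -0.14 ± 0.07, with -0.205, -0.062 and -0.142 in the pairs. The 7 genes with the ER stress element ran from -0.14 to 0.08 with a median of -0.05, and 0 of them were called by limma with or without the block, or passed an unadjusted p under 0.05. The 8 genes with the C/EBP-ATF core ran from -0.58 to -0.04, with a median of -0.27 and pair medians of 0.18, -0.64 and -0.38; Nupr1 was the 1 called. The disulfide isomerases Pdia4 and Pdia6 had 0.07 ± 0.07 and -0.05 ± 0.08, but a second, dimmer Pdia4 probe set (mean signal 7.55 against 12.2) had -0.34 ± 0.07 with a limma adjusted p of 0.0243 among probe sets of named genes. Of the co-chaperones, Dnajb11 had -0.01 ± 0.07 and Dnajc3, whose 2 probe sets held the same values, -0.13 ± 0.07. Creld2, a chaperone with disulfide isomerase activity, had -0.05 ± 0.06. Edem1, which hands misfolded glycoproteins to degradation, had 0.00 ± 0.08.

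Among other genes of these pathways, listed by function and not for how they moved, 2 of 91 measured rose and 5 fell, 7.69% beside 7.78% of all genes. With the replicate block these were 9 and 10, where 7.87% of all genes were called higher and 9.54% lower. The eIF2 machinery (15 of 16 measured) had 0 higher and 2 lower, beside 3.79% and 3.99% of all genes. Ppp1r15a (GADD34), the phosphatase subunit that ends the eIF2 signal, fell by 0.42 ± 0.08 on the log2 scale (SE, limma adjusted p = 0.0187), with -0.22, -0.48 and -0.57 in the pairs. Eif2b3, a subunit of the eIF2 exchange factor, fell by 0.30 ± 0.07 (adjusted p = 0.0386). Other described ATF4 targets (21 of 23 measured) had 1 higher and 3 lower, beside the same shares of all genes. The mTORC1 inhibitor Ddit4 fell, with -1.06, -0.91 and -0.79 in the pairs (limma adjusted p = 0.00889). Vegfa, the vascular growth factor, fell with -0.33, -0.66 and -0.65 (0.0174), and the growth arrest gene Gadd45a with -0.19, -0.54 and -0.66 (0.0408). Gpt2, the mitochondrial alanine aminotransferase, rose by 0.43 ± 0.10 on the log2 scale (limma adjusted p = 0.0424), in all 3 pairs.

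Cytosolic aminoacyl-tRNA synthetases, which charge tRNAs and many of which ATF4 induces, had 0 of 18 measured called by limma. At an unadjusted p under 0.05, 0 were up and 3 down, where 11.5% and 13.1% of all genes were. Their median was -0.11, with -0.02, -0.12 and -0.15 in the pairs. Untreated replicate 1 was the lowest untreated array in 17 of 18, beside 32.6% of all genes. Of 37 measured other ER folding and quality control genes (39 listed), 1 rose and 0 fell, beside 3.79% and 3.99% of all genes. Their median was -0.03. The riser was Os9, a lectin that passes misfolded glycoproteins to degradation, at 0.57 ± 0.08 on the log2 scale (SE, 1.48-fold, limma adjusted p = 0.00677), with 0.71, 0.54 and 0.45 in the pairs. With the block, 6 of these genes were called higher and 1 lower, beside 7.87% and 9.54% of all genes. The 6 were Os9, Uggt2, Wfs1, Creb3, Creb3l2 and Atf6b, and the 1 was Sil1, an exchange factor of HSPA5 (-0.29 ± 0.11 SE, adjusted p = 0.159, or 0.011 with the block). Of the 7 genes called without the block, Os9 and Ddit4 were called in 6 of 6 fits without 1 array. Vegfa, Ppp1r15a and Gpt2 passed in 2 and Eif2b3 and Gadd45a in 1; all 5 lost their call without untreated replicate 2 (as without tamoxifen replicate 2 or tamoxifen replicate 3), with adjusted p-values of up to 0.143 over these fits.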

How the data were processed

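RNA of 6 samples (3 untreated, 3 tamoxifen) was read on Affymetrix arrays. The deposited table holds log2 intensities. Per the submitters' processing notes, the authors ran RMA in Affymetrix Expression Console (version 1.2); the range of the values shows the log2 scale. No build for the array annotation was given in the sources used here. Of 35556 probe sets, 21789 had exactly 1 listed gene symbol; the brightest per gene was kept, leaving 19938 genes. The table held 0 columns of other samples.

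Groups were compared over all 19938 genes with limma 3.58.1 in R 4.3.3 (lmFit, eBayes, two-sided), with calls at a p under 0.05 after Benjamini-Hochberg adjustment; an exact permutation test of 3 against 3 arrays cannot go below 0.1. Arrays of the same number deviated from their group means together (r across genes 0.356, 0.345 and 0.389), so the numbers were taken to pair the arrays. Differently numbered ones had r from -0.254 to -0.115. Deviations add up to 0 within a group, so positive values for matched numbers force negative ones elsewhere. The block was thus chosen from the same values that it was then used on. Members and lists were chosen with earlier results of these data known. Values in every array are given for members called with or without the block and for the 2 smallest p-values of a role. Atf4, Atf3, Trib3, Asns, Hspa5 and Chac1 are given in every array outside this rule. Other pathway genes are named if called, at most 3 a list and direction. Those called with the block alone were added after their values were seen. Older symbols were replaced for 5 listed genes. The fit was tested on simulated arrays. Promoters come from RefSeq (GRCm38.p6). The alternatives were the replicate block, probe set means, a filter on dim genes, 3 scalings, another variance prior, all probe sets and left-out arrays. A planned count of proteins with a KDEL-type tail was not run, since protein sequences were not used here.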

Additional observations from a re-analysis of the deposited data

How the results depend on the processing

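The number of members called lower was 3, and 8 with the replicate block, 0 over all 35556 probe sets and 0 to 8 when 1 array, or both arrays of a number, was left out. The number called higher was 1, and 0 over all probe sets and 0 to 1 in the fits with arrays left out. Called genes of the other pathway lists numbered 7, and 19 with the replicate block, 13 without the dimmest 40% of genes, 1 over all probe sets and 0 to 12 with arrays left out. Leaving out both arrays of a number was chosen after seeing the data. Over all genes, calls numbered 1552, and 3472 with the block, 336 over all probe sets and 39 to 1703 with arrays left out. The chaperone median of -0.0482 was -0.00706 after renewed quantile normalisation and -0.0102 after cyclic loess, and -0.0742 to -0.0292 with arrays left out. Under the alternatives run, the medians of the amino acid genes, of the ATF4-arm genes and of all members moved from their main value by less than the SD of their 3 pair medians. That is a wide yardstick. The pair medians ran from -0.22 to 0.04 for the amino acid genes, beside a median of -0.15. For the ATF4-arm genes they ran from -0.25 to 0.08, beside -0.16. Staying within this SD therefore does not show that the medians were stable. No called member changed sign; of the others, 12 changed sign in some fit, 5 of them with all arrays kept. Without untreated replicate 1, lower calls numbered 8 among the members, more than the 3 with all arrays, and 584 over all genes, fewer than the 796 with all arrays; the cause was not tested. Precision is limited by having 3 arrays a group, and dim probe sets such as Slc7a11 have compressed changes.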
